A study of Danio rerio with 45 samples.

Results

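Chromatin modifier genes of the zebrafish (Danio rerio) were followed along the animal-vegetal axis of the early embryo. They were taken by symbol from the table of read counts, after removal of a trailing copy number. A row was a member if its symbol began with kdm, kmt, setd, hdac, smarc, kat2 to kat8, brd1 to brd9, ep300, crebbp, ehmt, dnmt, tet1 to tet3, prmt, suv39, ezh or chd1 to chd9. This gave 135 rows of 118 symbols, among 12670 rows in all. The rule uses symbols alone, but it was set with earlier results of these data known. Embryos at 1, 2 and 3 hours post fertilisation (hpf; about 4, 64 and 1000 cells) were cut into 5 sections, from A, the most animal, to E, the most vegetal, and each section was sequenced by itself (TOMO-seq). There were 3 replicate embryo samples for 1 hpf and for 3 hpf and 2 for 2 hpf, whose replicate 3 was not analysed here. The labels name no strain, genotype or treatment, so stage and section are what set the groups apart, and they do not say how many embryos made up a replicate.

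Chromatin modifiers write, remove or read chemical marks on histones and DNA, or move nucleosomes. Lysine methyltransferases of the KMT2 family mark promoters and enhancers with histone H3 lysine 4 methylation, demethylases of the KDM groups take such marks off, and acetyltransferases and deacetylases set histone acetylation, which bromodomain proteins bind. SMARC and CHD genes encode subunits of nucleosome remodelling machines. The zebrafish egg is loaded with maternal RNA, and the embryo divides on this supply until its own genome is switched on near the end of the period sampled. Many roles named here were worked out in mammals, flies or yeast and are given as background.

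The 40 libraries held 1355607 to 6566549 counts. Per the labels' protocols every library started from the same amount of RNA, so a value, in CPM (counts scaled to a common library total), states how much of a section's RNA a gene takes up and not an amount per embryo. Fewer cells and less RNA per cell cannot be told apart in such a share. All 6 vegetal marker RNAs were higher in E and all 3 animal marker RNAs were higher in A at every stage. The 5 first zygotic genes were testable at 3 hpf only, where all 5 were higher in A. Of the enveloping layer markers 1 of 4 had a row, and it was higher in A at 3 hpf; of the ovarian follicle markers 2 of 5 had rows, lhcgr and gsdf, with means under 4 CPM in A and E at each stage, and neither was called. No marker of the yolk syncytial layer, or of maternal blood and liver, had a row. Member rows took 1.73% to 2.05% of all counts in the section E libraries and 2.25% to 2.55% in the section A libraries.

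Some libraries stood apart from others with the same stage and section. Among the member rows, 10 differed at least 3-fold between replicate 3 and both other replicates at 1 hpf and at 3 hpf, 7 being higher and 3 lower in replicate 3. In 2 hpf replicate 2, sections A, B and E had the replicate 3 pattern of these rows and sections C and D had the other one. The row smarcad1a_2 had 101, 92.8 and 55.3 CPM in sections A, B and E of that sample but 0.15 and 0.32 CPM in sections C and D. Counts of calls between A and E at 2 hpf are therefore also given without sections C and D of this sample. Values of single genes in C and D at 2 hpf include these libraries. The labels do not say whether replicates of 1 stage came from separate clutches, so p-values cover only the spread among the samples at hand, which may be technical.

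Section A held more of the chromatin modifier RNAs than section E. A row was called when edgeR's quasi-likelihood test gave a Benjamini-Hochberg adjusted p of at most 0.05 over all rows of the table. At 1 hpf 19 of 135 rows were called higher in A, or 14.1%, against a background of 6.34% of all rows tested, and 6 rows, or 4.44%, were called higher in E against 6.76%. At 2 hpf the counts were 24 higher in A, 17.8% against 4.87%, and 2 higher in E, 1.48% against 5.12%. At 3 hpf they were 23 higher in A, 17% against 7.49%, and 7 higher in E, 5.19% against 8.1%. Calls toward A thus lay above the background share at each stage and calls toward E below it. The median log2 fold change of E minus A over the 135 rows was -0.08, -0.23 and -0.13 at 1, 2 and 3 hpf, beside -0.00, 0.02 and -0.02 over all rows tested.

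**Figure D1:**
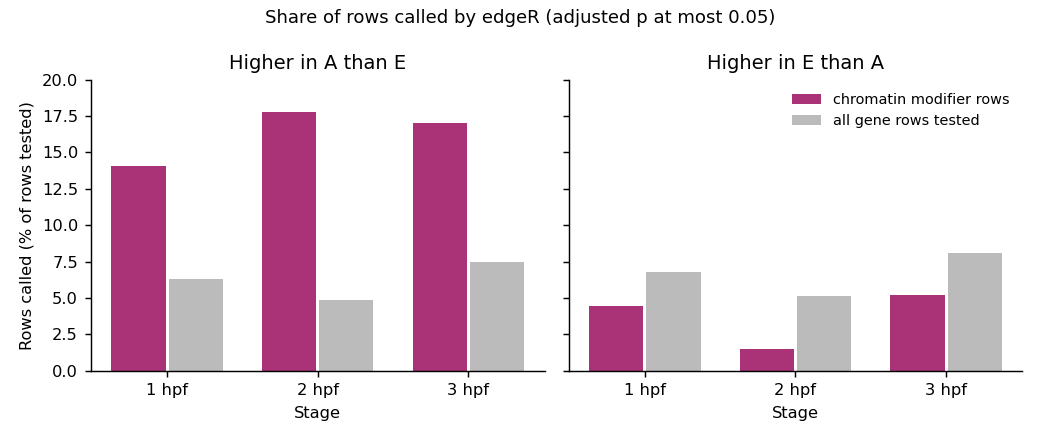
Percent of rows called by edgeR as higher in section A than E (left) or higher in E than A (right) at each stage, for the 135 chromatin modifier rows and for all rows tested. Members exceeded the background toward A at every stage (17.8% against 4.87% at 2 hpf) and lay below it toward E.

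The size of this imbalance depended on scaling. With libraries scaled to their totals in place of TMM factors, the counts were 1 row in E and 40 in A at 1 hpf, 2 and 35 at 2 hpf, and 5 and 44 at 3 hpf. Under that scaling the median of all rows itself moved to -0.14, -0.14 and -0.22. Calls over all rows moved too. Toward A they went from 799 to 1699 of 12597 at 1 hpf, from 613 to 1003 of 12593 at 2 hpf and from 946 to 2346 of 12625 at 3 hpf. Toward E they went from 851 to 684, from 645 to 538 and from 1023 to 721. When sections C and D were left out of 2 hpf replicate 2, 31 rows were higher in A and 4 in E at that stage. Section E of that sample was the shallowest library of the stage. Leaving it out leaves 1 library in E, so no conclusion is drawn from counts of that fit. How far the 2 hpf counts depend on that library could not be checked. At 1 hpf, 10 of 135 rows were higher in A without replicate 2, against 480 of 12591 in all. Without replicate 3 there were 11 of 129, against 527 of 12386. Toward E 3 rows were called whichever replicate was left out, against 885, 652 and 618 rows in all without replicate 1, 2 and 3. Without C and D of 2 hpf replicate 2, all rows called numbered 855 of 12596 toward A and 864 toward E.

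Of the 135 rows, 39 were called at 1 or more stages and 96 at none. Those called toward A were 31, of which 13 were called at all 3 stages, 9 at 2 stages and 9 at 1 stage. Those called toward E were 8, of which kdm6ba and kdm7aa were called at all 3 stages, 3 at 2 stages and 3 at 1 stage. No member row was called in both directions. Counts over stages were not made for all rows, so these describe the members alone. Differences were mostly modest: 8 of the called rows reached an absolute log2 fold change of 1 at some stage. In the 24 rows called toward A at 2 hpf, the median level was 87.1% of A in section B, 81.1% in C, 73.7% in D and 56.2% in E. In the 19 such rows at 1 hpf the medians were 104% in B, 97.7% in C, 90.1% in D and 71.8% in E, and in the 23 rows at 3 hpf 98.9%, 93.5%, 84.2% and 62.8%. These rows were chosen by their A and E values, and A is the base of every percentage, so the medians of B to E are a description. The 2 hpf medians of C and D include the libraries of replicate 2 that stood apart.

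**Figure D2:**
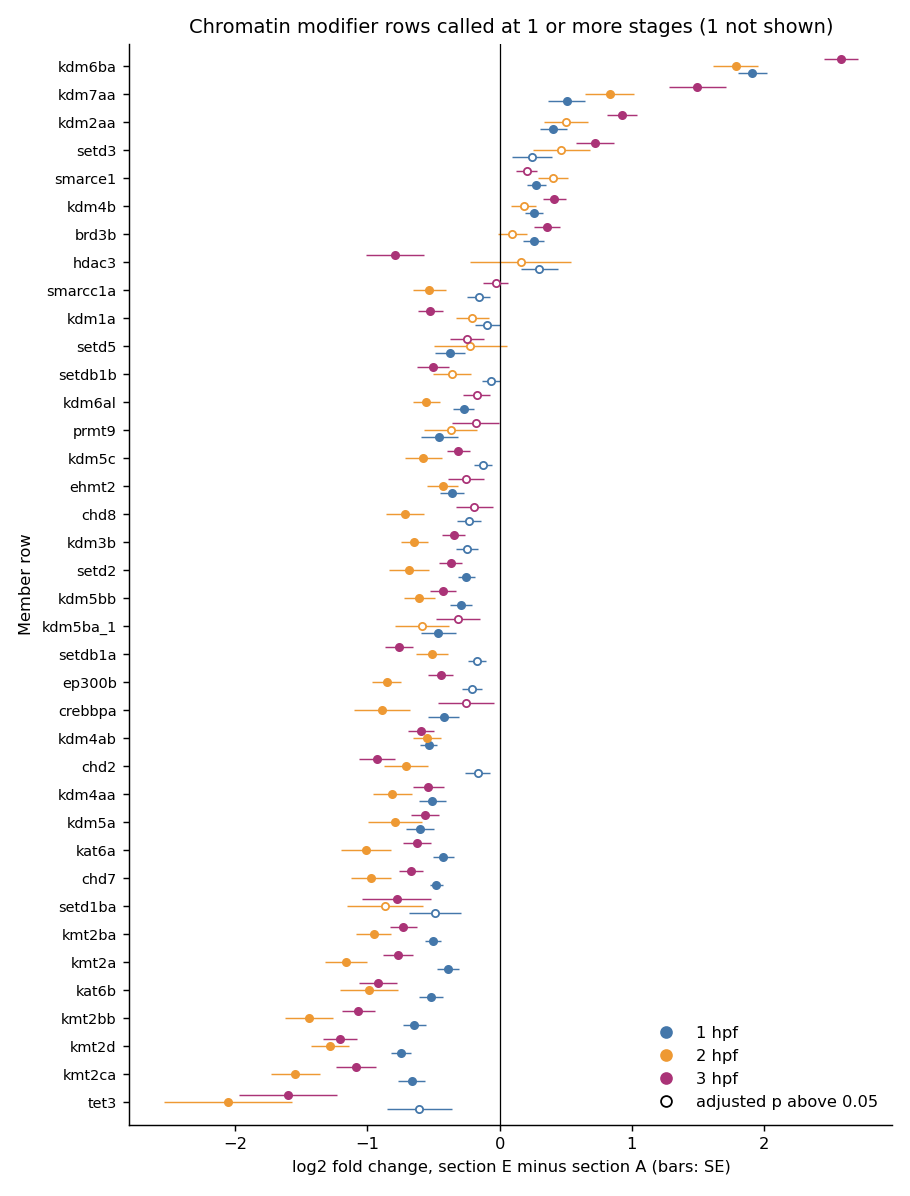
Log2 fold change of section E minus section A (points, bars show SE) at 1, 2 and 3 hpf for rows called at 1 or more stages, 1 of which is not shown; open points had an adjusted p above 0.05. On the side of E, kdm6ba lies the farthest to the right at 2.58 at 3 hpf, and tet3 lies farthest to the left at -2.05 at 2 hpf.

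Asked whether any of the 5 sections differed, the test called 24 rows at 1 hpf, 17.8% against a background of 11.5%. It called 13 rows at 2 hpf, 9.63% against 6.49%, and 27 rows at 3 hpf, 20% against 12%. Without replicate 2 the counts at 1 and 3 hpf were 14 and 16, against 992 of 12591 and 953 of 12616 rows in all. With the libraries of all 3 stages in 1 fit, the 2 hpf count was 41, against 2067 of 12668 rows. The count without C and D of 2 hpf replicate 2 is not given, because 1 library is left in each of these sections. Rows called by this test but not between A and E were chd4a, dnmt1, dnmt3ba, ep300b and kdm6a at 1 hpf, setd1a_1 and smarcad1a_2 at 2 hpf and chd4a at 3 hpf. Other rows were called between A and E but not over the 5 sections. An example was brd3b at 1 hpf, with an edgeR adjusted p of 0.299 over the sections. At 2 hpf the 13 rows called over the 5 sections were fewer than the 24 called toward A. Calls named in the rest of the text are between A and E unless the 5 sections are named.

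Among lysine methyltransferases (30 rows), 8, 8 and 9 rows were higher in A at 1, 2 and 3 hpf, and 1 was higher in E, at 3 hpf. For this and every group below, the background toward A was 6.34%, 4.87% and 7.49% of all rows at 1, 2 and 3 hpf, and toward E 6.76%, 5.12% and 8.1%. The group's median log2 fold changes of E minus A were -0.16, -0.21 and -0.23. The KMT2 genes stood out in this group, and they were singled out after their values had been seen: 5 of the 7 kmt2 rows were higher in A at all 3 stages. For kmt2d, whose human counterpart is a main writer of H3 lysine 4 monomethylation at enhancers, section A held 630, 662 and 563 CPM at 1 hpf and section E 366, 400 and 339 CPM. At 2 hpf the values were 829 and 723 CPM in A and 388 and 256 CPM in E, and at 3 hpf 752, 677 and 633 CPM in A and 284, 324 and 295 CPM in E. Every A library lay above every E library of its stage. The log2 fold changes of kmt2d were -0.75 ± 0.07 (SE), -1.28 ± 0.14 and -1.20 ± 0.13, with edgeR adjusted p of 4.8e-08, 0.00038 and 2.49e-07.

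The related enhancer methyltransferase gene kmt2ca had 272 ± 19.4 CPM (SD, n = 3) in section A at 1 hpf and 172 ± 6.0 CPM in section E. Its A libraries held 386 and 376 CPM at 2 hpf against 166 and 95.8 CPM in E, and at 3 hpf 306, 264 and 324 CPM against 149, 151 and 122 CPM. A and E did not overlap at any stage, and the log2 fold changes were -0.66, -1.55 and -1.09. The promoter methyltransferase genes followed: kmt2bb had log2 fold changes of -0.65, -1.44 and -1.07, kmt2ba of -0.51, -0.95 and -0.73, and kmt2a of -0.39, -1.16 and -0.77. For kmt2a the replicates differed as much as the sections at 1 hpf, with 594, 772 and 542 CPM in A against 536, 573 and 363 CPM in E, so the ranges overlapped although E was the lower section in each replicate. At 2 and 3 hpf its A and E libraries did not overlap.

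Over these 5 rows, section E stood at 59.6% to 77.2% of A at 1 hpf, 34.3% to 51.6% at 2 hpf and 43.8% to 60.4% at 3 hpf. Section D had 86.9% to 102% of A at 1 hpf, but 53.0% to 71.2% at 2 hpf and 63.5% to 81.3% at 3 hpf, so the D level was lower relative to A in the later samples. For kmt2d at 2 hpf, section D held 501 CPM in replicate 1 and 321 CPM in replicate 2, the sample whose C and D stood apart. Whether D changed between stages was not tested. The other kmt2 rows were not called at any stage. For kmt2e, which encodes a more distant family member, 1 hpf means were 81.9 CPM in A against 92.1 in E, the replicates overlapped, and no stage was called. The low row kmt2cb, with 1 hpf means of 8.05 CPM in A against 7.55 in E, was also not called. At 3 hpf its log2 fold change was -1.16, beside -1.09 for kmt2ca, with section E at 43.9% of A. Its E to A ratios at that stage were 0.18, 1.20 and 0.10 in replicates 1, 2 and 3, and the libraries overlapped. Whether kmt2cb differed from the called rows was not tested.

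**Figure D3:**
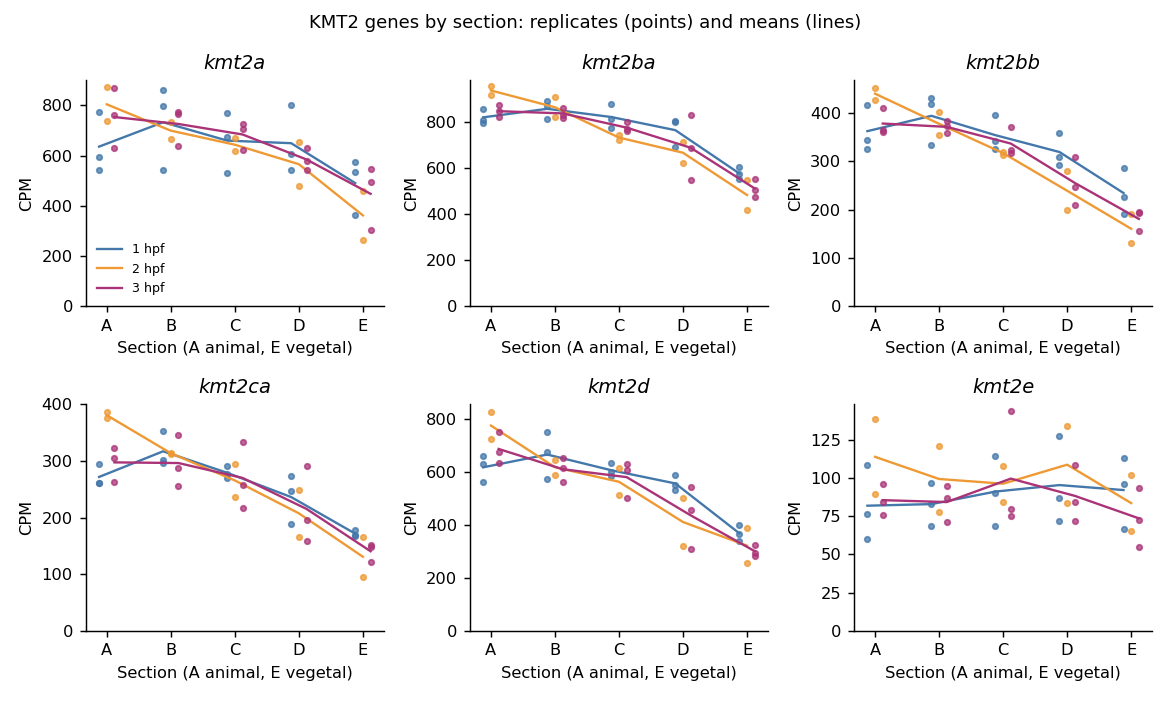
CPM of 6 kmt2 rows in sections A to E at each stage; points are replicates and lines are means. In kmt2a, kmt2ba, kmt2bb, kmt2ca and kmt2d the level falls toward section E, to 34.3% to 51.6% of A at 2 hpf, while kmt2e has no called difference.

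Calls toward A were also made for other methyltransferases. The gene setd2, whose product trimethylates H3 lysine 36 along transcribed genes, was higher in A at all 3 stages, with log2 fold changes of -0.25, -0.69 and -0.37 and no overlap between A and E libraries. For setd1ba, an H3 lysine 4 methyltransferase gene, the call stood at 3 hpf alone at -0.78 ± 0.26 with an edgeR adjusted p of 0.049. When rows of 1 symbol were summed it was -0.43 and no longer called, and leaving out replicate 1, 2 or 3 also ended the call, at -0.87, -1.05 and -0.42. The row setd5 was called toward A at 1 hpf, where replicates 1 and 2 fell from 288 and 311 to 191 and 202 CPM while replicate 3 had 287 and 288 CPM.

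In the opposite direction, setd3, which in mammals encodes an actin histidine methyltransferase, had 33.4, 37.5 and 53.2 CPM in A and 61.3, 60.3 and 82.0 CPM in E at 3 hpf. All E libraries were above all A libraries, and its log2 fold change was 0.72 ± 0.14.

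Methyltransferases of silent chromatin were split. The H3 lysine 9 methyltransferase gene ehmt2 was higher in A at 1 and 2 hpf, with log2 fold changes of -0.36 and -0.43, and at 3 hpf its value of -0.25 was not called. The H3 lysine 9 trimethylation genes setdb1a and setdb1b were not called at 1 hpf and were higher in A at 3 hpf, at -0.76 and -0.50. At 2 hpf setdb1a was already called toward A, at -0.51, while setdb1b was not called, at -0.36. The Polycomb methyltransferase gene ezh2, which writes H3 lysine 27 methylation, had means of 240 CPM (A) and 250 CPM (E) at 1 hpf and log2 fold changes of 0.05, 0.08 and 0.04, none called. The same held for suv39h1a and suv39h1b, ehmt1b, and kmt5aa, a gene for the H4 lysine 20 methyltransferase, for which the 3 log2 fold changes were 0.12, 0.26 and 0.20.

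Lysine demethylases (22 rows) held members that were high at each end of the axis. Toward A 6, 7 and 7 rows were called at 1, 2 and 3 hpf, and toward E 4, 2 and 4 rows. The vegetal end was led by kdm6ba, which encodes an H3 lysine 27 demethylase that removes the Polycomb mark. At 1 hpf its A libraries held 296, 312 and 215 CPM and its E libraries 908, 1355 and 830 CPM. At 2 hpf A had 373 and 238 CPM and E 1177 and 903 CPM, and at 3 hpf A had 323, 336 and 251 CPM and E 2232, 1771 and 1493 CPM. All E libraries were far above all A libraries, and section D lay between them with means of 396, 588 and 861 CPM. The log2 fold changes of kdm6ba were 1.91 ± 0.11, 1.79 ± 0.17 and 2.58 ± 0.13, with edgeR adjusted p of 9.59e-12, 0.00013 and 1.28e-12.

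The gene kdm7aa, for a demethylase of H3 lysines 9 and 27, was the other row called toward E at all stages. It had 28.2, 33.5 and 29.0 CPM in A and 50.0, 40.5 and 41.0 CPM in E at 1 hpf, and 24.7, 20.3 and 26.8 CPM in A and 101, 44.5 and 64.3 CPM in E at 3 hpf. The groups did not overlap, and replicate 1 gave the highest E value at both stages. Its log2 fold changes were 0.51 ± 0.14, 0.83 ± 0.19 and 1.49 ± 0.22. The call at 1 hpf was lost without section A of replicate 1 (0.45, edgeR adjusted p of 0.0548), and without the whole of replicate 1 or 3 (0.39 and 0.50). At 2 hpf the value was 0.82 without section E of replicate 2. Without replicate 1 or 2, in a fit over all stages, it was 0.78 and 0.91. The row was not called in any of these fits. Each of them left 1 library in section E, so the 2 hpf call rests on 2 replicates and could not be checked with 1 left out.

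The gene kdm2aa, for an H3 lysine 36 demethylase that binds unmethylated CpG DNA, was called toward E at 1 and 3 hpf. Its 3 hpf values were 94.8, 89.8 and 116 CPM in A against 183, 169 and 217 CPM in E, without overlap. Its log2 fold changes were 0.41, 0.50 and 0.92, that of 2 hpf not called. The gene was called at 2 hpf when C and D of replicate 2 were left out and with all libraries in 1 fit. Its 1 hpf call was lost without replicate 2 at 0.23. The H3 lysine 9 demethylase gene kdm4b was called at 1 and 3 hpf with small differences of 0.26 and 0.41; at 1 hpf the call was lost without replicate 1 or 2, at 0.21 and 0.28. With scaling to library totals the 1 hpf calls of kdm7aa, kdm2aa and kdm4b and the 3 hpf call of kdm4b were lost, at 0.38, 0.28, 0.13 and 0.21, and no direction turned.

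The demethylase rows called toward A included several of the KDM5 group, which take methyl groups off H3 lysine 4, and of the KDM4 group. For kdm5a the A libraries at 1 hpf held 187, 164 and 148 CPM and the E libraries 119, 107 and 99.4 CPM, without overlap. Its log2 fold changes were -0.60, -0.79 and -0.56. The H3 lysine 9 and 36 demethylase gene kdm4ab had 405, 404 and 391 CPM in A and 264, 281 and 281 CPM in E at 1 hpf. Its log2 fold changes were steady, at -0.54, -0.55 and -0.60. Its paralogue kdm4aa was at -0.51, -0.81 and -0.54, and its 1 hpf call was lost without replicate 3, at -0.37. The row kdm5bb was called at all 3 stages, with values of -0.29, -0.61 and -0.43.

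The demethylase genes kdm5c and kdm3b were called toward A at 2 and 3 hpf, with 2 hpf values of -0.58 and -0.64. The row kdm6al, a relative of the H3 lysine 27 demethylase gene kdm6a, was called at 1 and 2 hpf, at -0.27 and -0.55. For kdm1a, the LSD1 gene whose product removes H3 lysine 4 methylation within corepressor complexes, A and E means were close at 1 hpf (247 and 231 CPM, not called) and farther apart at 3 hpf, with 206, 217 and 223 CPM in A and 159, 150 and 143 CPM in E. Its 3 hpf log2 fold change was -0.52 ± 0.10. The gene kdm6a itself, at -0.27, -0.29 and 0.04, was not called between A and E. The test over the 5 sections called it at 1 hpf, where its means were 101 CPM in A, 121 CPM in B and 83.7 CPM in E.

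Acetyltransferase rows (14) were called toward A in 3, 4 and 3 cases and never toward E. The MYST-family genes kat6a and kat6b were higher in A at all stages. The A libraries of kat6a at 3 hpf held 513, 498 and 505 CPM and the E libraries 349, 377 and 261 CPM, without overlap, and its log2 fold changes were -0.43, -1.01 and -0.63. Those of kat6b were -0.52, -0.99 and -0.92. Its 2 hpf call was lost without section E of replicate 2, at -0.85, in a fit with 1 library left in E. For ep300b, a gene of the p300 coactivator that acetylates H3 lysine 27 at enhancers, A held 436 and 390 CPM and E 248 and 206 CPM at 2 hpf. It was called at 2 and 3 hpf, at -0.85 and -0.45. Its partner gene crebbpa has 2 rows. The row crebbpa was called at 1 and 2 hpf, at -0.42 and -0.89. The row crebbpa_1 was not called at any stage, with E means at 83.1%, 59.5% and 91.2% of A. The genes ep300a, crebbpb, kat5b and kat7a were not called at any stage.

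Deacetylase rows (13) had 1 call, hdac3 toward A at 3 hpf, and median log2 fold changes of 0.11, 0.07 and -0.01. The class I deacetylase gene hdac1 had 381 ± 23.9 CPM in A and 411 ± 20.2 CPM in E at 1 hpf, and values of 0.11, 0.07 and 0.02, none called. The hdac3 call, at -0.79 ± 0.22, concerns 1 of the 2 rows of that symbol. With both rows summed it was -0.44 with an edgeR adjusted p of 0.0969, and without replicate 2 or 3 it was also lost, at -0.66 and -0.88.

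Bromodomain rows (10) had no call toward A. The gene brd3b, for a reader of acetylated histones, was called toward E at 1 and 3 hpf with values of 0.26 and 0.36. These brd3b calls did not hold under scaling to library totals (0.13 and 0.15), nor without replicate 2 or 3 (0.25 and 0.21 at 1 hpf, 0.36 and 0.29 at 3 hpf), and at 1 hpf also not without section A of replicate 1 (0.25, edgeR adjusted p of 0.0782). The gene brd3a had 1 hpf means of 396 CPM (A) and 424 CPM (E) and was not called at any stage.

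Remodelling genes had calls mostly among the CHD rows. Of the 17 SMARC rows, smarce1 was called toward E at 1 hpf (0.28), and also at 2 hpf when C and D of replicate 2 were left out, and smarcc1a toward A at 2 hpf (-0.53); the smarce1 call was lost without replicate 1 or 3, at 0.25 and 0.21, and with library totals, at 0.15. The ATPase genes smarca4a and smarca5 had 1 hpf means of 589 and 471 CPM in A and 557 and 479 CPM in E and were not called at any stage. The core subunit rows smarcb1a and smarcb1b were not called either.

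Of the 10 CHD rows, 1, 3 and 2 were called toward A and 0 toward E, and the medians were -0.18, -0.38 and -0.13. The remodeller gene chd7, mutated in human CHARGE syndrome, held 1079, 1195 and 1142 CPM in A and 781, 854 and 816 CPM in E at 1 hpf. At 2 hpf the values were 1467 and 1339 CPM against 867 and 570 CPM. A and E did not overlap at any stage, and its log2 fold changes were -0.48, -0.97 and -0.67. The row chd8 was called at 2 hpf (-0.72) and chd2 at 2 and 3 hpf. The other row of that symbol, chd8_1, was not called at any stage. The genes chd1, chd4a and chd4b, the latter pair for NuRD ATPases, were not called between A and E. Over the 5 sections chd4a was called at 1 and 3 hpf, with 1 hpf means of 554 CPM in D against 485 CPM in A and 438 CPM in E.

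Among DNA methylation genes (11 rows) tet3 was the only row called between A and E, toward A at 2 and 3 hpf. It encodes an enzyme that oxidises 5-methylcytosine. It had 28.0 and 26.2 CPM in A and 8.75 and 2.34 CPM in E at 2 hpf, and 24.4, 13.9 and 17.7 CPM in A and 7.36, 7.94 and 3.46 CPM in E at 3 hpf. The groups did not overlap at these stages, while at 1 hpf they did. Its log2 fold changes at 2 and 3 hpf were -2.05 ± 0.49 and -1.60 ± 0.37, at low counts. The 2 hpf call was lost without section E of replicate 2, at -1.56, in a fit with 1 library left in E. The maintenance methyltransferase gene dnmt1 had 2303 ± 72.2 CPM in section A against 2261 ± 46.8 CPM in section E at 1 hpf, and its E-minus-A values of -0.03, -0.10 and -0.20 were not called. Its highest 1 hpf mean was that of section D, at 2624 CPM, and the test over the 5 sections called it at that stage. The de novo methyltransferase rows dnmt3ba, dnmt3bb.1 and dnmt3bb.2 were not called between A and E at any stage; dnmt3ba was among the rows that differed over the 5 sections at 1 hpf. Of 8 arginine methyltransferase rows, prmt9 was called once, toward A at 1 hpf (-0.46), and prmt1 and prmt5 were not called.

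Zebrafish keeps many duplicated genes. By symbol, 25 pairs of members differ in the last letter alone, a or b. Such a match does not make a pair a zebrafish duplicate: kat2a and kat2b, and kat6a and kat6b, carry the names of separate mammalian genes. In 15 pairs the 2 genes did not differ in call at any stage. In 3 of them, kmt2ba and kmt2bb, kat6a and kat6b, and kdm4aa and kdm4ab, both were higher in A throughout. In the rest of the 15 neither gene was called at any stage, which does not show that they behaved alike. No pair had 1 gene called toward A and the other toward E. The widest gap at 1 hpf lay between kdm6ba and kdm6bb, at 1.91 and 0.51, but kdm6bb had means of only 1.65 and 2.44 CPM in A and E. For kdm7aa and kdm7ab the values were 0.51 and -0.07, for kdm2aa and kdm2ab 0.41 and -0.14, and for kmt2ca and kmt2cb -0.66 and -0.14. In each of these pairs 1 gene was called and the other was not, and the difference between the paralogues was not tested. Counts behind kdm2ab were ample, at 399 and 363 CPM, whereas kdm7ab had 4.86 and 4.57 CPM.

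Whether E minus A shifted from 1 to 3 hpf was tested directly, as an interaction over all libraries. It was called in 2 of 135 members, 1.48% against a background of 0.695%, both with a drop of E relative to A. For setdb1a, A held 494, 533 and 554 CPM and E 445, 462 and 497 CPM at 1 hpf, while at 3 hpf A held 396, 428 and 425 CPM and E 193, 255 and 299 CPM. The groups overlapped narrowly at 1 hpf and were separate at 3 hpf, and the change was -0.58 ± 0.13 in log2 with an edgeR adjusted p of 0.0244. For chd2, whose product is a chromatin remodeller, A held 105, 121 and 112 CPM and E 110, 111 and 85.7 CPM at 1 hpf, and at 3 hpf A held 105, 116 and 93.5 CPM and E 44.1, 67.2 and 52.9 CPM. Here too the groups overlapped at 1 hpf only, and the change was -0.76 ± 0.17 with an edgeR adjusted p of 0.0262.

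Both calls were lost without replicate 1, 2 or 3 (-0.44, -0.62 and -0.71 for setdb1a, -0.54, -0.85 and -0.93 for chd2), without section A of 1 hpf replicate 1 (-0.56 for setdb1a and -0.69 for chd2) and without section E of 3 hpf replicate 1 (-0.54 and -0.69), the shallowest library. The vegetal rows kdm7aa and kdm6ba had the next smallest p, with changes of 0.99 ± 0.25 and 0.68 ± 0.19 toward E and edgeR adjusted p of 0.0620 and 0.102. Both were called with 2 hpf replicate 2 deprived of its sections C and D, as was hdac3.

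**Figure D4:**
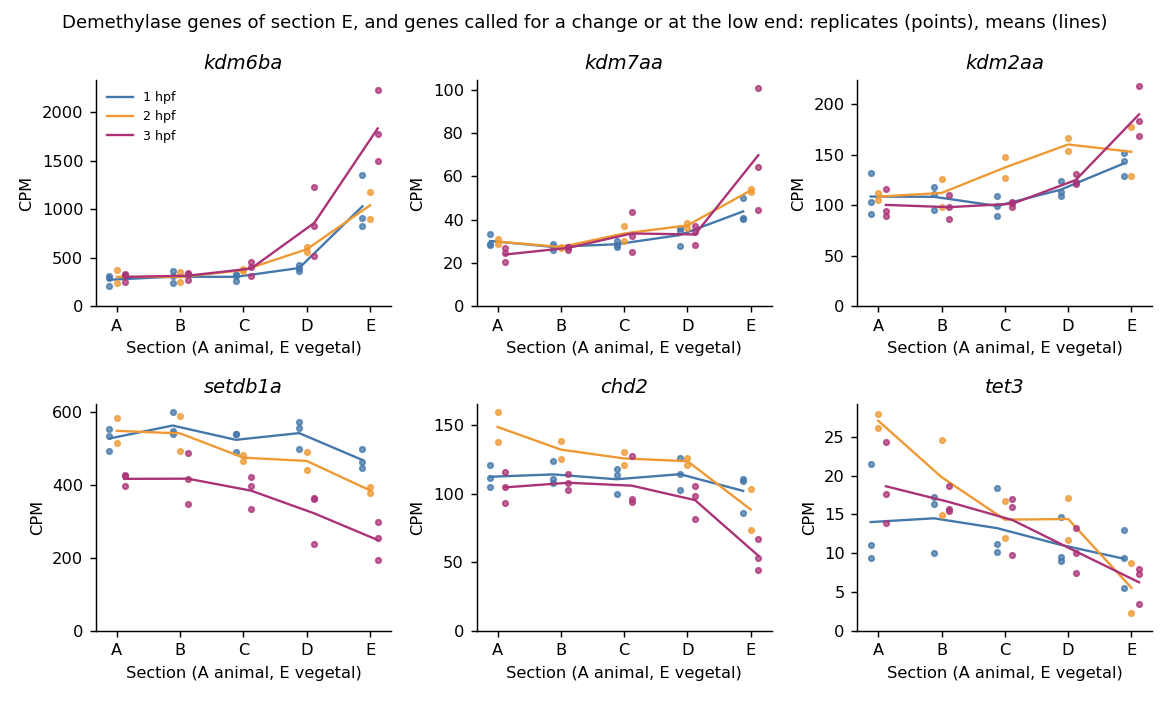
CPM in sections A to E at each stage for 3 demethylase genes called toward section E (kdm6ba, kdm7aa, kdm2aa), the 2 genes called for a change between 1 and 3 hpf (setdb1a, chd2) and tet3; points are replicates and lines are means. The mean of kdm6ba in E rises to 1832 CPM at 3 hpf, while setdb1a and chd2 drop in E at 3 hpf to means of 249 and 54.7 CPM.

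Summed over the sections, the shares of RNA taken up by chromatin modifiers moved little. Such sums weight sections by depth and do not state an amount per embryo. With the 5 section libraries of each embryo sample summed, no member was higher at 3 than at 1 hpf by edgeR, against 0.379% of all rows, and 9 had an unadjusted p under 0.05; DESeq2 called 4. One was lower, 0.741% against 1.37%. Of the 135 rows, 115 changed by less than 0.25 in log2 and 132 by less than 0.5. The same count was not made for all rows, so small changes are not shown to be particular to the members. The lower gene was setdb1a, with 511, 532 and 542 CPM at 1 hpf, 481 and 515 CPM at 2 hpf and 342, 425 and 399 CPM at 3 hpf. The 3 hpf samples were all below the 1 hpf samples, and the log2 fold change was -0.44 ± 0.08 with an edgeR adjusted p of 0.0489, a call lost without replicate 1, 2 or 3 at -0.38, -0.50 and -0.44. Over all rows, 0 were called lower without replicate 1, 0 without replicate 2 and 196 without replicate 3. With the replicate number as a block, 3 members were lower, setdb1a, kdm6a and smarcc1b, against 572 of 12667 rows in all. In that fit 0 members were higher, against 228 rows in all. The paralogue setdb1b stayed at 310 ± 9.66 CPM at 1 hpf and 312 ± 5.78 CPM at 3 hpf. Between 1 and 2 hpf no row of the table was called by edgeR (0% of all rows in either direction), and at an unadjusted p under 0.05 there were 3 higher members and 0 lower ones; DESeq2 called no member.

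Partner genes outside the symbol rule were counted in 10 lists of complexes and relatives, chosen with earlier results of these data known. Their shares can be read against the background percentages above. Of the 15 other lysine methyltransferase genes, 4 were called toward A and 0 toward E at each stage, beside 6.34%, 4.87% and 7.49% of all rows toward A; nsd3, an H3 lysine 36 methyltransferase gene, had log2 fold changes of -0.44, -0.90 and -0.65. The 26 Polycomb partners had 4, 4 and 5 calls toward E and 0, 1 and 0 toward A. Among them suz12a, for a core subunit that works with ezh2, had 219 CPM in section A against 616 CPM in section E at 1 hpf and values of 1.48, 1.91 and 1.98. The Polycomb ring finger gene bmi1a had values of 0.71, 1.04 and 0.93. Another of these calls, epc1a (1.32, 1.17 and 1.61), carries Polycomb in its name but encodes a subunit of the NuA4 acetyltransferase.

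The 16 COMPASS partners, which form complexes with KMT2 and SETD1 enzymes, had 1, 1 and 3 calls toward E and 1, 2 and 0 toward A, among them wdr82 at 0.31, 0.58 and 0.30. The 25 NuRD and HDAC partners had 4, 3 and 4 calls toward E and 1, 2 and 4 toward A. The NuRD subunit gene gatad2b was far higher in E, where its 1 hpf mean was 307 CPM against 53.7 CPM in A, with values of 2.54, 2.59 and 3.13. The 12 SWI/SNF partners had 2, 1 and 2 calls toward E and 1, 4 and 2 toward A, among them arid1ab at -0.31, -0.73 and -0.32.

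The 36 SAGA, NuA4 and HBO1 partners had 1, 2 and 2 calls toward E and 4, 3 and 2 toward A. The scaffold gene trrap was higher in A, at -0.42, -0.81 and -0.72. The gene msl2a, counted in this list though named for the MSL complex, was higher in E, at 2.33, 2.87 and 3.30. The 24 ISWI, INO80 and SRCAP genes had 2 calls toward E at each stage and 4, 3 and 3 toward A. In this list ino80db, for an INO80 subunit, had 1 hpf means of 88.7 CPM in section A and 791 CPM in section E, and rsf1b.1, a remodelling and spacing factor gene, fell from 349 to 219 CPM. Their log2 fold changes were 3.24, 3.85 and 3.2 and -0.68, -1.35 and -1.66.

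Of 6 sirtuin deacetylase genes 1, 1 and 2 were called toward E, with sirt7 at 1.32, 1.28 and 1.3. The 20 heterochromatin and DNA methylation reader genes had 3, 0 and 2 calls toward E and 3, 1 and 3 toward A; uhrf1, the partner of dnmt1, was higher in A at -0.30, -0.57 and -0.32. The 19 histone chaperone genes had 1 call toward E at each stage and 1, 1 and 2 toward A. The E call was anp32e, for a chaperone of the histone variant H2A.Z, at 0.79, 1.39 and 1.47.

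Some member symbols have several rows, and reads of near-identical copies can be divided among them, so such rows are uncertain. The 10 rows with the replicate 3 pattern include such rows, rows with a copy number whose symbol has no other row, and low rows. The row hdac3_1 had 26.5 and 25.4 CPM in replicates 1 and 2 at 1 hpf and 0.10 CPM in replicate 3, and 20.5, 21.9 and 0.05 CPM at 3 hpf. The row hdac3 went the other way, and was highest in replicate 3. The row kmt5ab_1, of an H4 lysine 20 methyltransferase gene, had 19.9, 16.8 and 59.9 CPM at 1 hpf while kmt5ab_2 had 33.2, 38.0 and 1.45 CPM.

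For setd1a_1 the embryo sums were 0.24, 0.13 and 34.3 CPM at 1 hpf, and for prmt7_2 15.6, 13.9 and 0.03 CPM. The remaining ones were smarcad1a_2, dnmt3ab, hdac11, kdm5ba and smarca2, higher in replicate 3. None of the 10 was called between A and E; setd1a_1 and smarcad1a_2 were called over the 5 sections at 2 hpf, where C and D of replicate 2 carried the other pattern. What sets replicate 3 apart is not given in the labels. Without replicate 3, 11 rows were called toward A and 3 toward E at 1 hpf, against 527 and 618 of 12386 rows in all. At 3 hpf they were 22 and 6, against 638 and 722 of 12365.

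**Figure D5:**
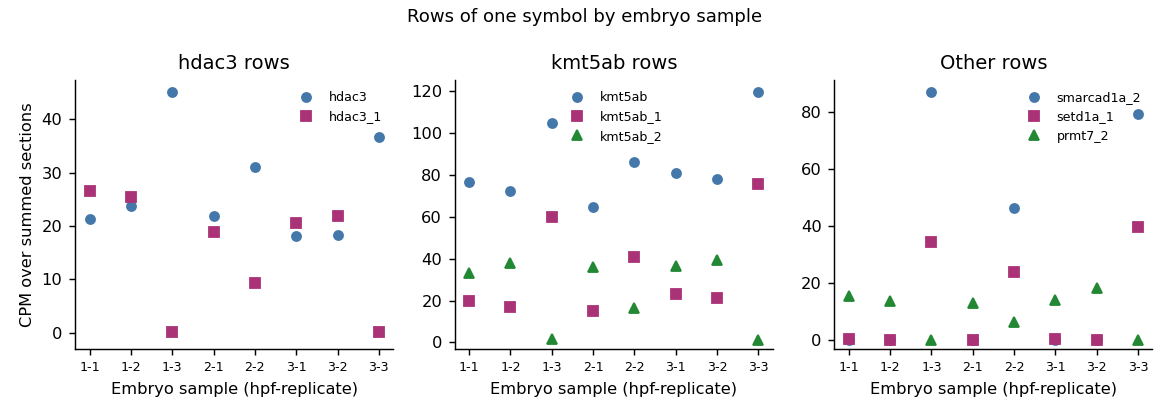
CPM over the summed sections of each embryo sample (hpf and replicate number on the x axis) for the hdac3 rows, the kmt5ab rows and 3 further rows. Replicate 3 of 1 and 3 hpf has hdac3_1, kmt5ab_2 and prmt7_2 near 0 and smarcad1a_2 at 87.0 and 79.5 CPM, and 2 hpf replicate 2 lies in between.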

How the data were processed

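Directional, rRNA-depleted libraries were made from 20 ng of total RNA, per the labels' protocols. The deposited table holds raw read counts of 40 libraries; each of its 12670 rows has at least 60 counts in all. The submitters' processing notes name genome build GRCz11 and the tools HTSeq 2.0.4, STAR 2.7.11, fastp 0.23.4 and DESeq2; the tools' roles and the annotation are not given in the sources used here. Symbols stand as deposited, and transcript lengths were not used, so levels are compared within a gene only.

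The test was that of edgeR 4.0.16 under R 4.3.3: TMM factors, its standard filter, which all 135 members passed, the quasi-likelihood test, and Benjamini-Hochberg adjustment at 0.05 over all rows. CPM are counts per TMM-scaled library total. Sections were compared within a stage with the replicate number as a block, since the labels give same-numbered sections as 1 biological replicate. Deviations from section means correlated between same-numbered sections with a median of 0.66 at 1 hpf, 0.0998 at 2 hpf and 0.589 at 3 hpf. The change of E minus A from 1 to 3 hpf was tested as an interaction over 40 libraries with a block per embryo sample, and stages on sums of the 5 sections without a block. Embryo sums of equal number at 1 and 3 hpf deviated together, with correlations of 0.709, 0.730 and 0.911, so the value with the replicate block stands beside that comparison. Such sums weight sections by depth. DESeq2 1.42.0 and limma 3.58.1 served as alternatives, beside library totals, no filter, summed rows of 1 symbol, all libraries in 1 fit, and libraries or replicates left out. The fits were also run on simulated counts, drawn independently for each library and without differences between replicates. The data differ in this, so that run does not give error rates for them.

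Members and lists were chosen with earlier results of these data known. Named members were, per comparison of E with A, up to 8 called rows per direction by size, with 1 sign in every replicate and at least 10 CPM, up to 6 per direction elsewhere, a fixed set of well-known members where present, and the 4 paralogue pairs of widest gap at 1 hpf. The other rows named were chosen after their values were seen. One called member is counted but not reported here by name.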

Additional observations from a re-analysis of the deposited data

Results flagged for a closer look

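The E-to-A difference of setdb1a and of chd2 differed between 3 and 1 hpf by the interaction test itself. The change of E minus A was -0.58 in log2 for setdb1a and -0.76 for chd2, each with section E lower relative to A at 3 hpf. In setdb1a all 3 replicates had E below A at both stages; in chd2 E was below A in 2 of 3 replicates at 1 hpf and in 3 of 3 at 3 hpf. For setdb1a the change ran from -0.71 to -0.44 over the fits without 1 replicate, and for chd2 from -0.93 to -0.54, and none of these fits called it. Over all rows, the fits without replicate 1, 2 and 3 called 29, 35 and 15, against 88 with every replicate.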

How the results depend on the processing

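The 42 results for named members gave 423 values under the alternatives: 365 kept their call, 58 lost it, and 0 reversed.

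With library totals the members called toward E and A numbered 1 and 40 at 1 hpf and 5 and 44 at 3 hpf. Those differing among sections were 37 at 1 hpf and 43 at 3 hpf. Over all rows these counts were 684 and 1699, 721 and 2346, and 1944 and 2262. Over fits leaving out 1 replicate or single libraries, members toward E numbered 3 at 1 hpf without any 1 replicate and 1 to 4 at 2 hpf, those toward A 10 to 20 at 1 hpf and 14 to 31 at 2 hpf, and those differing among sections 14 to 24, 12 to 51 and 16 to 22 at 1, 2 and 3 hpf. Those with a changed difference numbered 0 without replicate 1, 2 or 3, against 29, 35 and 15 rows in all. Those lower at 3 than 1 hpf also numbered 0 in each case, against 0, 0 and 196 rows in all. At 2 hpf, leaving out C and D of replicate 2 gave 4 toward E and 31 toward A, beside the all-row counts given above. The other 2 hpf fits with libraries left out leave 1 library in a section compared. They gave the low ends of the 2 hpf ranges toward E and A, and both ends of the range among sections. Calls over all rows shifted in these fits too, so nothing is concluded about the members from these ends. With all libraries in 1 fit, 4 were called toward E and 41 differed among sections at 2 hpf, against 925 and 2067 rows in all. DESeq2 gave 21 differing among sections at 2 hpf, 4 with a changed difference, and 4 higher and 3 lower at 3 than 1 hpf. Over all rows the DESeq2 counts were 1096, 176, 333 and 573. The count with a changed difference was 5 with C and D of 2 hpf replicate 2 left out, 0 without section A of 1 hpf replicate 1, and 0 without section E of 3 hpf replicate 1, the last chosen after seeing the data. Over all rows these counts were 121, 32 and 76. The cause of these shifts was not tested.

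Without the replicate block, members toward A at 1 hpf numbered 10, those differing among sections 10 at 1 hpf and 4 at 2 hpf, and those with a changed difference 0. Over all rows these counts were 414, 796, 566 and 15. With the replicate block across stages, 3 members were lower at 3 than 1 hpf, against 572 rows in all. In that fit 1 member, smarcad1a_2, was higher at 2 than 1 hpf, against 45 rows in all. At 1 and 2 hpf the embryo sums of equal number correlated at -0.675 and 0.695. With 2 samples at 2 hpf, their deviations from the stage mean mirror each other. The 2 correlations are therefore not separate values and cannot show whether equal numbers match between these stages. Depth limits the rows under 10 CPM, 22 of the members at 1 hpf, and the shallow section E libraries at 3 hpf.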
